A study of Mus musculus with 88 samples.

Results

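Fully grown germinal vesicle (GV) oocytes of aged mice were compared by the chromatin configuration that the study predicted for each of them. The aged group held 8 oocytes predicted to have a surrounded nucleolus (SN) and 37 predicted to have a non-surrounded nucleolus (NSN), 45 of the 88 oocytes sequenced. All came from C57BL/6Babr virgin females, which were 44 to 54 weeks old for the aged group and 12 weeks old for the young group of 42 oocytes, 12 SN and 30 NSN. The labels name no treatment or transgene, and 1 further aged oocyte, 48A, has no predicted configuration and was counted on neither side. The paper left 1 oocyte out of its analyses as an outlier in a distance matrix, without naming it in its text. The aged oocytes came from 7 mice, and since no source says which mouse gave which oocyte, they are 1 sample and no test between configurations was run. The configuration was not seen under a microscope. From earlier reports the paper expected most aged oocytes to be SN, and it holds it likely that its labels differ from the true chromatin state. It proposes that most aged oocytes that should be SN carry a less mature, NSN-like transcriptome. The study assigned configuration by clustering oocytes on their expression of genes that earlier work had found at a higher level in SN oocytes. The transcripts compared here therefore took part in the split. Every difference given here is a description of the oocytes on either side of that split.

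The RNA of each oocyte was the transcript part of scM&T-seq, which reads the polyadenylated RNA and the DNA methylation of the same cell. During the last phase of growth the chromatin of a mouse oocyte moves from the NSN arrangement, dispersed and transcriptionally active, to the SN arrangement, condensed around the nucleolus and largely silent. From then on the oocyte lives on RNA made earlier, which it stores, polyadenylates or degrades, and SN oocytes are known to complete meiosis and early cleavage more often than NSN oocytes. The counts give the share of an oocyte's reads that a transcript holds, and not how much RNA the oocyte holds in all, so a higher share and a smaller loss than that of other transcripts cannot be told apart.

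Total counts in transcript features ranged from 1007492 to 4798888 in the SN oocytes, with a median of 2235633, and from 976456 to 5448310 in the NSN oocytes, with a median of 2385433. The names of the aged oocytes fall into 3 runs of numbers, 9 to 16, 25 to 31 and 41 to 48, and each name ends in A or in no letter. What the runs and the letter stand for is not given in the labels. SN oocytes occurred in 3 of the 6 subsets of run and letter, with 2 SN and 6 NSN oocytes in run 1 without letter, 3 and 4 in run 2 with letter A, and 3 and 5 in run 3 without letter. The other 22 NSN oocytes shared no subset with an SN oocyte. All 12 oocyte markers were measured in the aged oocytes, Gdf9 and Bmp15 at 3953 and 3358 counts per 1000000 counts (CPM) in NSN oocytes. The summed level of 12 granulosa cell markers ranged from 86.3 to 118 CPM in the SN oocytes and from 71.1 to 201 CPM in the NSN oocytes. Its largest part was Cyp19a1, at 49.6 CPM in SN and 53.1 CPM in NSN oocytes. Cyp19a1 was read from a feature that shares only 19.6% of its span with the gene. Over all 45 oocytes Amh had 5 counts and Foxl2 had 2 counts. The summed level of 11 blood, immune and stromal markers ranged from 57.7 to 78.4 CPM and from 41.02 to 107 CPM, most of it Pecam1, at 64.6 CPM in SN and 62.6 CPM in NSN oocytes.

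More features were higher than lower in SN oocytes. Of 9747 features with at least 10 CPM in the summed counts of either configuration and at least 3 counts in both, 867 (8.9%) were higher in SN by at least 1.5-fold and 179 (1.84%) were lower, with the median over oocytes in the same direction. The log2 ratio of CPM, SN over NSN, had a median of -0.01 over all 9747 features, and 49.2% lay above 0. At 2-fold, 344 features (3.53%) were higher and 9 (0.0923%) were lower. The direction was the same within each of the 3 runs for 815 of the 867 features counted as higher and for 168 of the 179 counted as lower. These are 8.36% and 1.72% of all 9747 features. All 8 SN oocytes lay above all 37 NSN oocytes in 53 features (0.544%) and below all of them in 5 (0.0513%). Of the 5, Gm26819 and Med10 had nearly the same CPM and may not be separate.

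The largest differences were in features with few counts in NSN oocytes. As 10 CPM in either configuration sufficed for a feature to be tested, part of this follows from the filter. The features higher in SN had a median of 22.7 CPM in SN and 11.1 CPM in NSN oocytes, against 42.1 and 40.8 CPM over all features tested. Together they held 4.25% of the counts of SN oocytes and 2.31% of those of NSN oocytes. By mean count per aged oocyte, the median log2 ratio was 0.12 in 7092 features with 1 to 10 counts, 0.04 in 7012 with 10 to 100, -0.05 in 4594 with 100 to 1000 and -0.08 in 385 with 1000 or more.

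Gbp7, a guanylate-binding GTPase of the interferon-induced family on chromosome 3 (142530338 to 142550143, GRCm38), separated the configurations at the highest level among the 8 named features with the largest ratios. Its CPM in the SN oocytes was 34.7 in oocyte 15, 38.7 in 27A, 44.4 in 41, 44.9 in 12, 51.3 in 26A, 58.3 in 47, 66.7 in 46 and 74.1 in 28A. In the NSN oocytes it ranged from 0.450 to 13.4 CPM with a median of 3.66. The lowest SN oocyte was therefore above the highest NSN oocyte, and the summed counts gave 52.0 against 4.59 CPM, a log2 ratio of 3.50 with a 95% counting interval of 3.34 to 3.67. Gpkow, a nuclear RNA-binding protein tied to splicing, did not overlap either, with 4.83 to 17.3 CPM in SN and 0 to 2.91 CPM in NSN oocytes and a log2 ratio of 3.58.

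Spcs3, a subunit of the signal peptidase complex that trims secreted proteins, had 5.96 CPM in SN oocyte 15 and 10.6 CPM in SN oocyte 12, against 25.6 to 52.6 CPM in the other 6. Its NSN oocytes ranged from 0 to 6.10 CPM with a median of 2.73, so that 1 of them lay above the lowest SN oocyte. The log2 ratio was 3.45 over all aged oocytes and 1.90, 3.32 and 3.69 within runs 1, 2 and 3. Oocytes 12 and 15 are the SN oocytes of run 1, and they were also the lowest of the 8 for Map3k2, a kinase of the MAP kinase cascades, at 10.6 and 4.96 CPM against 21.4 to 50.2 CPM in the others. The ratio of Map3k2 was 3.26 on the log2 scale, and 1.79 within run 1.

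The remaining features with the largest ratios were at or below 1 CPM in most NSN oocytes. Zfp707, a zinc finger protein, had 15.7 CPM in SN and 0.922 CPM in NSN oocytes, a log2 ratio of 4.09. Usp35, a deubiquitinase, had 13.4 and 0.900 CPM, a log2 ratio of 3.89, yet it had no count in SN oocyte 15. Zfyve27, which shapes the endoplasmic reticulum, had 10.1 and 0.954 CPM, a log2 ratio of 3.41, and 0.993 CPM in oocyte 15. The largest ratio of a named feature, 6.29, belonged to a feature that shares only 25.9% of its span with the gene it was named from, Kcnip4 (chromosome 5, 48768968 to 49063393). It had 5.00 to 24.1 CPM in the 8 SN oocytes, while 6 of the 37 NSN oocytes had any count and the highest of them 1.90 CPM.

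**Figure D1:**
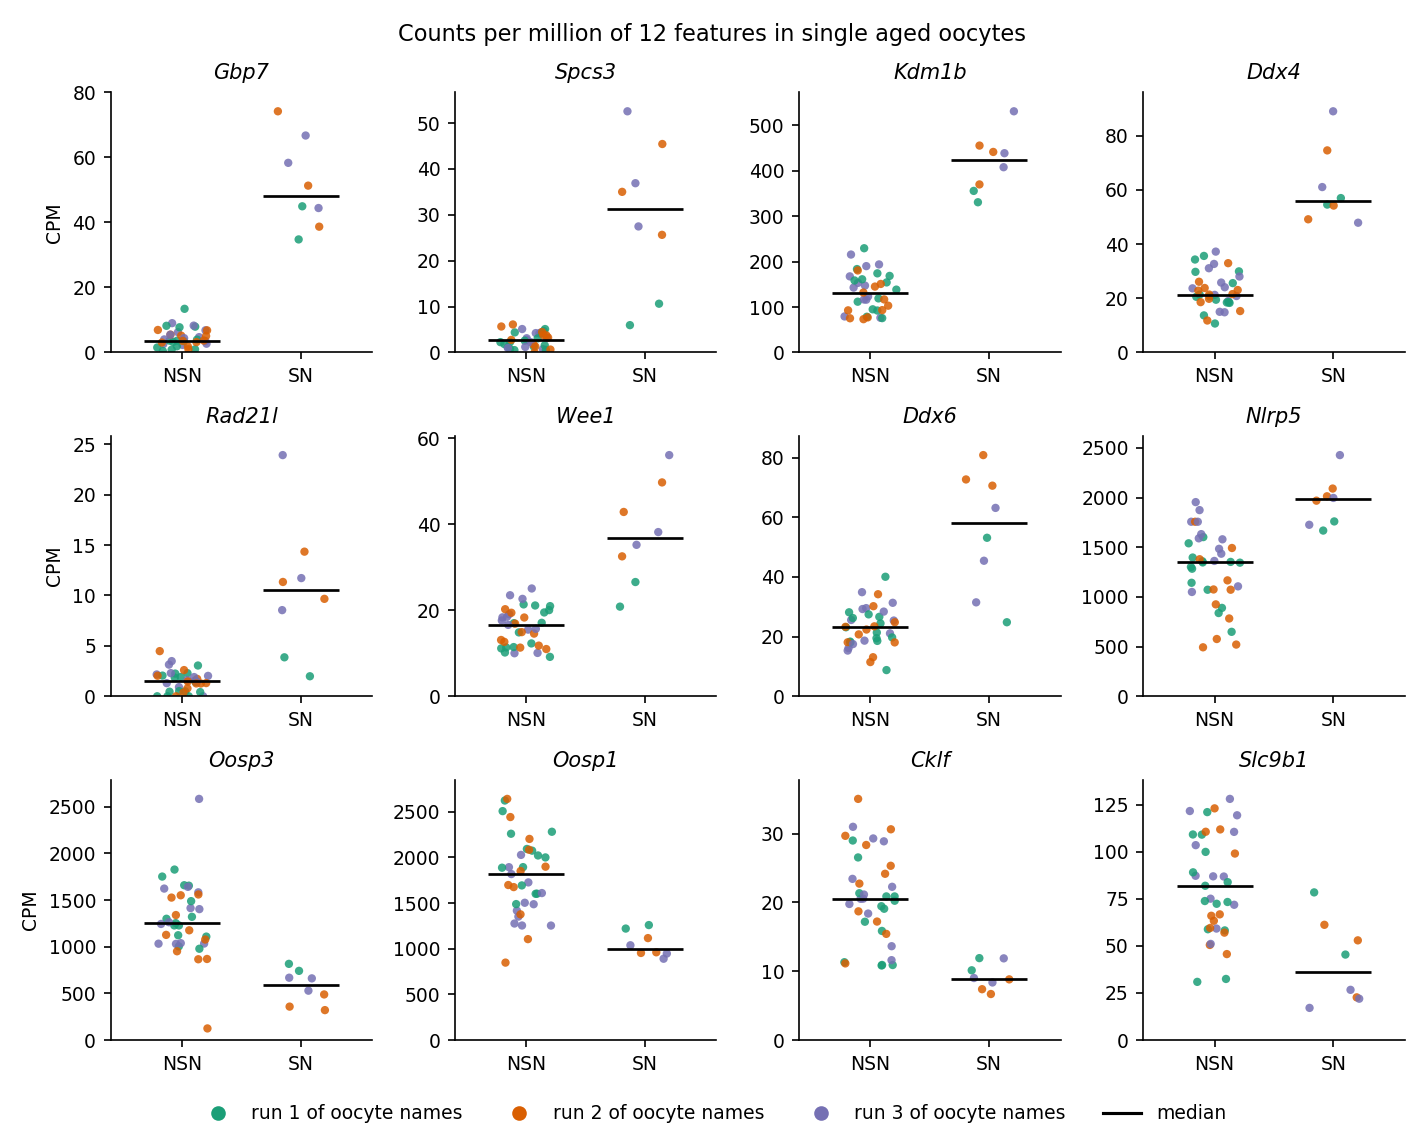
CPM of 12 features in each of the 8 SN and 37 NSN aged oocytes, each point an oocyte coloured by its run of names and each bar a median, with axes that start at 0. The SN oocytes lie above every NSN oocyte for Gbp7, Kdm1b and Ddx4, and the SN oocytes of run 1 are the lowest of the 8 for Spcs3, Rad21l and Wee1.

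The features lower in SN differed by less and overlapped more. Oosp3, a member of the oocyte-secreted protein family on chromosome 19 (11696839 to 11711874), had 321 CPM in SN oocyte 27A, 359 in 28A, 489 in 26A, 529 in 46, 661 in 41, 668 in 47, 742 in 12 and 817 in 15. The NSN oocytes ranged from 125 to 2585 CPM with a median of 1254, and 1 of the 37 lay below the highest SN oocyte. The log2 ratio of Oosp3 was -1.19. Oosp1, the neighbouring gene of the same family (11667460 to 11691636), had 1026 ± 137 CPM (SD over 8 oocytes) in SN and 1741 ± 426 CPM (SD over 37 oocytes) in NSN oocytes, a log2 ratio of -0.76. Here and below, CPM of a configuration comes from its summed counts and the SD is over its single oocytes. Oosp2, which lies beside them, had 543 and 713 CPM and a log2 ratio of -0.39, under 1.5-fold.

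Slc9b1, a sodium and hydrogen ion exchanger, had the smallest ratio, -1.22. It had 17.1 to 26.7 CPM in the SN oocytes of run 3 and in 26A of run 2, and 45.4 to 78.4 CPM in the other 4, while the NSN oocytes ranged from 30.9 to 128 CPM. Its log2 ratio was -0.52 within run 1, -0.70 within run 2 and lower still within run 3. Cklf, a chemokine-like factor, stood at 6.69 to 11.9 CPM in SN and 10.8 to 35.1 CPM in NSN oocytes, and 6 NSN oocytes lay below the highest SN oocyte. Its log2 ratio was -1.15, and that of Tlr3, a receptor for double-stranded RNA, was also -1.15 at 4.82 against 10.7 CPM. Tex12, a component of the synaptonemal complex, had a log2 ratio of -1.13, with 26.1 CPM in SN oocyte 41 and 6.22 to 11.4 CPM in the other 7. The palmitoyl hydrolase gene Abhd17a had -1.07, Cth, an enzyme of cysteine synthesis, had -1.04, and A430046D13Rik had -1.02. A430046D13Rik was read from a feature that shares only 25.4% of its span with the gene.

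The smaller set was the more dependent on which NSN oocytes were taken. Against only the 15 NSN oocytes of the same run and letter, 810 features were higher in SN and 76 were lower, and of these 739 and 60 were also counted against all 37. All 867 features higher and all 179 lower kept the sign of their ratio, with medians of 0.88 and -0.53 on the log2 scale, compared with 0.88 and -0.67 against all NSN oocytes. Between the 15 NSN oocytes that shared a subset with SN oocytes and the other 22, the median log2 ratio was 0.05 for the features higher in SN and -0.23 for the features lower in SN. With all 37, the part that the subset has in the lower set cannot be told apart from the configuration. Against the 15 NSN oocytes of the same run and letter, Oosp3 had -1.08, Slc9b1 had -1.03, Tex12 had -0.72 and Abhd17a had -0.61. Oosp1 had -0.56, under 1.5-fold, and Gbp7 had 3.43.

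The features of 23 gene lists were then read against the shares of all features, 8.9% higher and 1.84% lower. Of 654 features in the lists, 46 were higher and 18 were lower. Compared with the NSN oocytes of the same run and letter, 42 of the 46 were still past the fold rule, but only 1 of the 18, the ribosomal protein gene Rps27l.

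Growth transcription factors had more ratios above 0 than below. Of 10 tested, 7 had ratios above 0, 3 were higher by the fold rule and 2 were lower, with a median log2 ratio of 0.23. Taf4b, an oocyte-enriched subunit of the general factor TFIID, had 47.8 to 71.0 CPM in SN and 14.8 to 44.7 CPM in NSN oocytes, without overlap, and a log2 ratio of 1.01. Its partners in oocyte-specific initiation were higher too, Gtf2a1l at 0.82 and Tbpl2 at 0.66, but at 0.07 and 0.29 within run 1, both under 1.5-fold. Obox5, an oocyte homeobox gene, was lower, at 620 ± 72.6 against 972 ± 193 CPM and a log2 ratio of -0.65, and Sohlh2, which acts early in follicle growth, was at 7.38 against 11.6 CPM. Against the NSN oocytes of the same run and letter their ratios were -0.52 and -0.53, under 1.5-fold, and the median of the list was 0.17.

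The egg coat and fertilisation list had 3 of its 8 tested members higher and none lower, with a median log2 ratio of 0.49, and 0.42 against the same run and letter. Its median was 0.09 within run 1, 0.72 within run 2 and 0.50 within run 3. Astl, the protease that cleaves Zp2 after fertilisation, had 855 to 1222 CPM in SN and 152 to 913 CPM in NSN oocytes, and 2 NSN oocytes lay above the lowest SN oocyte. The log2 ratio was 0.93 for Astl, 0.75 for Zp2 itself and 0.81 for Cd9, the tetraspanin needed for sperm fusion. The lowest was Mfsd2a, at -0.27. Of the 12 oocyte markers, 3 were higher and 1 was lower, with a median of 0.46. Ddx4, the germ cell RNA helicase also called VASA, did not overlap between configurations, at 61.2 ± 14.1 CPM in SN and 22.8 ± 6.66 CPM in NSN oocytes, a log2 ratio of 1.42.

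Among 28 maternal effect genes, whose products the early embryo needs, 3 (10.7%, against 8.9% of all features) were higher and none lower, with a median log2 ratio of 0.11. Only 1 of the 3, Kdm1b, was past 1.5-fold against the NSN oocytes of the same run and letter, and Nlrp2 fell short at 0.46. Kdm1b, the histone H3 lysine 4 demethylase required for imprint establishment in oocytes, had 427 ± 64.4 CPM in SN and 134 ± 42.9 CPM in NSN oocytes. The 8 SN oocytes lay between 331 and 531 CPM and the 37 NSN oocytes between 73.3 and 229 CPM, which gave a log2 ratio of 1.67. Cnot6l, the deadenylase subunit, had the lowest ratio of the list, -0.40, but 0.26 within run 1.

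The 8 maternal effect genes that the study names moved by less than Kdm1b, and 6 of them had ratios above 0. Nlrp5, of the subcortical maternal complex, had 1955 ± 245 CPM in SN and 1296 ± 380 CPM in NSN oocytes, a log2 ratio of 0.59, past 1.5-fold, but 0.51 against the NSN oocytes of the same run and letter and 0.32 within run 3, both under it. Padi6, of the cytoplasmic lattices, was at 8315 ± 889 against 5844 ± 1547 CPM, a log2 ratio of 0.51. The growth factors Gdf9 and Bmp15 had 0.47 and 0.34, and the maintenance DNA methyltransferase Dnmt1 and its partner Uhrf1 had 0.44 and 0.46. Dppa3, which protects maternal methylation after fertilisation, had -0.11, and Tcl1 had -0.21, with SN oocytes inside the NSN range for each. Tcl1 was read from a feature that shares only 18.1% of its span with the gene. Against the NSN oocytes of the same run and letter, Dppa3 was at 0.03.

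Chromatin genes had medians near 0 and shares of higher members near that of all features. Of 34 histone and DNA methylation enzymes, 3 (8.82%) were higher and none lower (median -0.01), with 8.9% higher and 1.84% lower over all features. Beside Kdm1b they were the demethylases Kdm5a, at 10.9 against 2.20 CPM and a log2 ratio of 2.32, and Kdm4b, at 1.00. Eed, of Polycomb repressive complex 2, had the lowest ratio, -0.47. Of 26 genes of histone acetylation and remodelling, 3 (11.5%) were higher and none lower (median 0.06), with the deacetylase Sirt1 at 45.05 against 20.03 CPM and 1.17 on the log2 scale, Chd1 at 0.66 and Hdac8 at 0.59, or 0.53 in the same run and letter. Sirt1 was read from a feature that shares 32.9% of its span with the gene, and the remodeller Smarca5 had the lowest ratio of this list, -0.52. Of 17 histone variants and nucleoplasmins, 1 was higher (median -0.06), H2afz at 1.07, and Atrx had -0.48 overall but 0.30 within run 1.

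Condensins, cohesins and topoisomerases, which fold and hold chromosomes, had 3 of 27 members higher (11.1%, against 8.9% of all features) and none lower, with a median of -0.03. Rad21l, a meiotic kleisin subunit of cohesin, had 1.99 to 23.9 CPM in SN and 0 to 4.48 CPM in NSN oocytes, and 12 NSN oocytes lay above SN oocyte 15. Its log2 ratio was 2.77, and those of the cohesin regulator Pds5a and the condensin subunit Smc2 were 1.11 and 1.10. The cohesin loader Nipbl, with -0.45, had 0.43 within run 1.

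In the lists for the making and processing of RNA most members were slightly lower in SN oocytes. RNA polymerase II and its basal factors had 32 of 48 ratios below 0 and a median of -0.14, with 4 higher and 3 lower by the fold rule. The 4 were Taf4b, Polr2m at 0.89, the elongation cyclin Ccnt1 at 0.76 and the largest polymerase subunit Polr2a at 0.71. The 3 were Polr2k at -0.67, Polr2l at -0.64 and the TFIIF subunit Gtf2f2 at -0.60. Gtf2f2 did not overlap, with 79.2 CPM in SN and 120 CPM in NSN oocytes. Against the NSN oocytes of the same run and letter none of the 3 was past 1.5-fold, with -0.36, -0.29 and -0.45, and Polr2k was at -0.28 within run 1. Splicing factors had 35 of 47 ratios below 0, a median of -0.15, and 2 higher and 2 lower, from Snrpb at 1.34 to Snrpe at -0.75, which was -0.49 in the same run and letter. The nucleolar list had a median of -0.05 over 32 members, of which 3 were higher and none lower. Ubtf, the upstream binding factor of RNA polymerase I, had 18.4 against 5.81 CPM and a log2 ratio of 1.66, although 0.41 within run 1, where SN oocyte 15 had 3.97 CPM. Utp20, of the small subunit processome, had -0.39.

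Ribosomal protein genes had the lowest median of the 23 lists against all 37 NSN oocytes, though not against those of the same run and letter. Of 81 tested, 70 had ratios below 0 and the median log2 ratio was -0.30, at -0.41, -0.20 and -0.29 within runs 1, 2 and 3, while 3 passed the fold rule in each direction. Against the NSN oocytes of the same run and letter the median was -0.13, above the -0.16 of the proteasome. The lower ones were Rps27l at -0.78, Rpl36a at -0.70 and Rpl24 at -0.69, of which Rpl36a and Rpl24 were under 1.5-fold in the same run and letter, at -0.45 and -0.56. The higher ones, Rpl9 at 1.81, Rps23 at 0.93 and Rpl7l1 at 0.74, were at 11.5, 15.1 and 25.01 CPM in SN oocytes, and reads of Rpl9 and Rps23 may be shared with copies elsewhere in the genome. Rps23 was at -0.71 within run 1.

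Nuclear genes of oxidative phosphorylation had 58 of 72 ratios below 0 and a median of -0.21, which was -0.04 against the NSN oocytes of the same run and letter. Ndufc2, Cox5a and Ndufb3, small subunits of the respiratory complexes, were lower at -0.64, -0.62 and -0.61, but at -0.38 each in the same run and letter, and Uqcrc1, a core subunit of complex III, was higher at 2.09, with 24.2 against 5.69 CPM. Proteasome genes had 25 of 33 below 0 and a median of -0.17, and -0.16 against the same run and letter. Psmd13, of the regulatory particle, was higher without overlap, at 14.3 ± 5.48 against 3.25 ± 1.88 CPM and 2.14 on the log2 scale. Psma2, of the core particle, was lower at -0.60, or -0.48 in the same run and letter. Psma2 was read from a feature that shares only 20.3% of its span with the gene. Translation factors had a median of -0.06 over 49 members, 2 of them higher, Eif3a at 0.77 and Eef1g at 0.68, and Eif3i had the lowest ratio at -0.46.

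Of 29 genes that store or remove maternal mRNA, 4 (13.8%, against 8.9% of all features) were higher and none lower, with a median of -0.07. Ddx6, the RNA helicase of cytoplasmic storage granules, had 24.8 to 80.8 CPM in SN and 8.77 to 40.1 CPM in NSN oocytes and a log2 ratio of 1.26. Patl2, an oocyte partner of Ddx6 in translational repression, had 1.18, and the m6A reader Ythdf2 and the deadenylation adaptor Tob1 had 0.94 each. Patl2 and Tob1 were at 0.37 within run 1 and Tob1 was at 0.56 within run 2, all under 1.5-fold. Cnot8, a catalytic subunit of the CCR4-NOT deadenylase, had the lowest ratio, -0.42, with 161 to 194 CPM in SN and 184 to 295 CPM in NSN oocytes, of which 2 lay below the highest SN oocyte.

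The meiotic lists moved little. Of 30 genes of meiotic resumption, 1 was higher and none lower (median -0.06). This was Wee1, a kinase that inhibits CDK1, at 38.9 ± 11.7 against 16.7 ± 4.33 CPM and 1.22 on the log2 scale, and Aurkc, the germ cell Aurora kinase, had the lowest ratio, -0.58. Of 24 genes of the anaphase-promoting complex (APC/C) and its regulators, none was higher and 2 were lower, its ubiquitin-conjugating enzyme Ube2s at -0.68 and its subunit Cdc26 at -0.67, and the subunit Anapc5 had the highest ratio, 0.39. In the same run and letter Ube2s was at -0.35 and Cdc26 at -0.51, both under 1.5-fold. Ube2s stood at 73.1 to 97.3 CPM in the 8 NSN oocytes of run 1 with letter A, which shared no subset with an SN oocyte, and at 22.9 to 64.0 CPM in the other 29. Genes of cortical actin and the spindle had 3 of 24 higher and a median of 0.13, with the GTPase Ran at 92.6 against 39.7 CPM and 1.22, the tubulins Tuba1c at 0.69 and Tuba1b at 0.63, and Arpc3 lowest at -0.33.

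Redox genes had 1 of 18 higher, the stress response factor Nfe2l2 at 0.81, and 1 lower, thioredoxin Txn1 at -0.70, or -0.55 in the same run and letter, with a median of -0.09. Endoplasmic reticulum genes had 2 of 22 higher, the chaperone Hspa5 and the disulphide isomerase Pdia3, at 0.74 each, with a median of 0.05 and Ddit3 lowest at -0.43. Of the granulosa markers, only Kitl, Nr5a2 and Cyp19a1 reached 10 CPM. Kitl, the ligand of the Kit receptor on oocytes, was higher at 17.4 against 10.0 CPM and 0.80 on the log2 scale, and Cyp19a1 was at -0.10. Pecam1, the only blood or stromal marker at this level, was at 0.05.

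**Figure D2:**
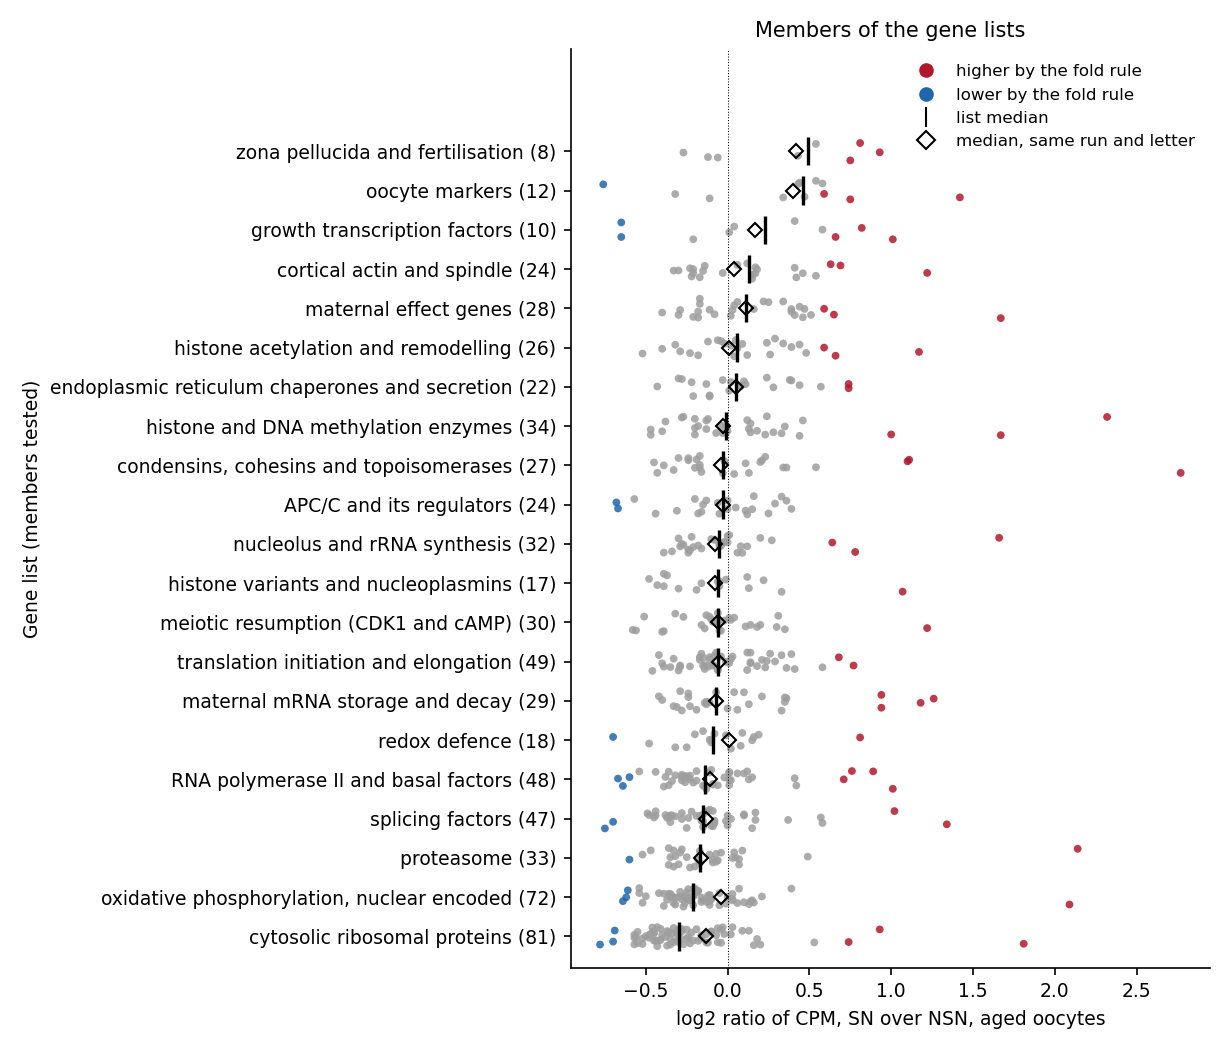
log2 ratio of CPM, SN over NSN, in aged oocytes for each tested member of 21 gene lists, with coloured points for members past the fold rule, a bar for the list median and a diamond for the median against NSN oocytes of the same run and letter. The medians run from -0.30 for ribosomal proteins to 0.49 for the egg coat, and the diamonds of ribosomal proteins and oxidative phosphorylation lie nearer to 0, at -0.13 and -0.04.

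The features higher in SN came from longer transcripts than those lower. The longest coding transcript of the gene had a median of 3811 bases for 662 protein-coding features higher in SN, 1520 bases for 130 lower and 3288 bases for all 8114 tested. By length, the median log2 ratio was -0.26 under 1000 bases, -0.10 from 1000 to 2000, 0.02 from 2000 to 4000, 0.06 from 4000 to 8000 and 0.11 at 8000 bases or more. In the shortest class 2.36% were higher and 9.45% were lower, and in the longest 11.2% and 0.542%. The order of shortest and longest held in every run, from -0.29 to 0.27 in run 1, from -0.23 to 0.11 in run 2 and from -0.28 to 0.10 in run 3. Against the NSN oocytes of the same run and letter it spanned -0.11 to 0.08. The NSN oocytes differed among themselves in the same respect, since coding transcripts under 1000 bases had a median log2 ratio of -0.22 in the 15 NSN oocytes that shared a subset with SN oocytes, over the other 22.

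The relation with length was also present at equal level. Among coding features with 30 to 100 CPM in NSN oocytes, the median log2 ratio was -0.15 in 680 features under 2000 bases and 0.06 in 1148 of 4000 bases or more. The GC content of the transcripts was alike, at a median of 47.7% for features higher in SN, 48.2% for features lower and 49.0% for all tested. Features with no annotated gene made up 18.6% of the features higher in SN, 13.4% of those lower and 10.1% of all tested. Long intergenic RNAs made up 2.31%, 6.70% and 2.98%. The share of tested features higher in SN ranged from 7.02% on chromosome 6 to 12.2% on chromosome 18, and was 8.30% on the X chromosome.

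**Figure D3:**
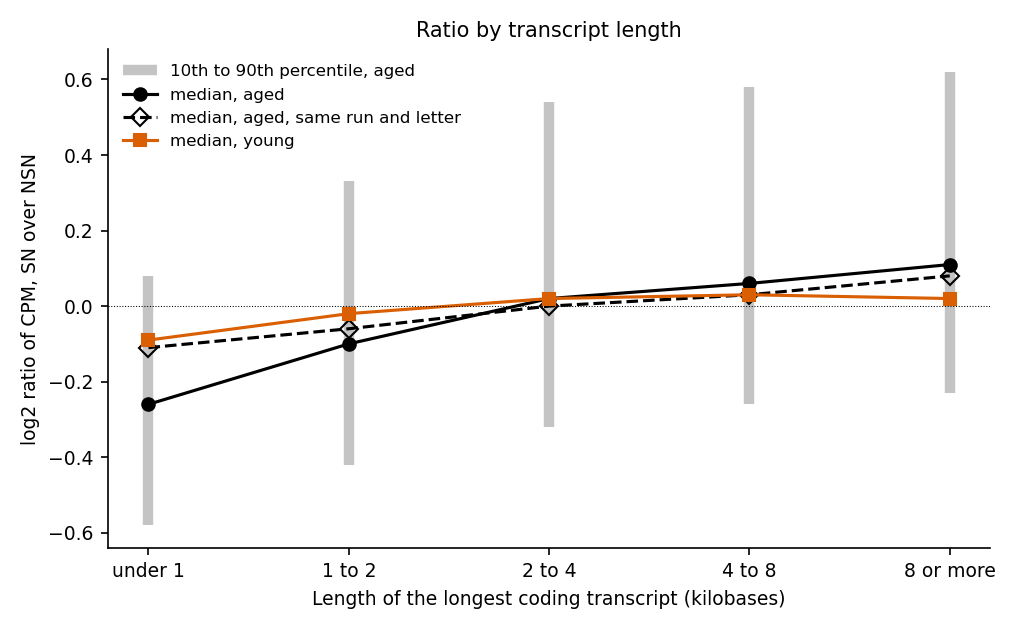
Median log2 ratio of CPM, SN over NSN, by the length of the longest coding transcript of a gene, for all aged oocytes (bars from the 10th to the 90th percentile of features), for aged oocytes of the same run and letter, and for young oocytes. The aged medians go from -0.26 in the shortest class to 0.11 in the longest, and the young medians from -0.09 to 0.02.

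The number of detected features differed between the configurations by less than the SD of SN oocytes, both at full depth and after thinning. At full depth 19476 ± 1830 features (SD, n = 8) had at least 1 count in an SN oocyte and 18710 ± 1270 (SD, n = 37) in an NSN oocyte, a difference smaller than either SD. The difference, SN minus NSN, was 765.4 over all aged oocytes, 319.7 without SN oocyte 41 and -436.8 within run 1. It was 490.2 within run 2 and 1400 within run 3. Against only the NSN oocytes that share a number with an SN oocyte it was -337.6. After each oocyte was thinned to 900000 counts, the numbers were 17331 ± 753 and 16636 ± 458. The difference, 694.7, was smaller than the SD of SN oocytes and larger than that of NSN oocytes. SN oocyte 15 had the lowest number of the 8, 15734, and without it the mean was 17559 ± 420, when 7 SN oocytes lay between 17057 and 18433 and the NSN oocytes between 15418 and 17448. The thinned means within runs 1, 2 and 3 were 16396, 17460 and 17825 for SN and 16334, 16719 and 16911 for NSN oocytes. Run 1, which holds oocyte 15, had the smallest thinned difference of the 3 runs.

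Most genes were less spread over the SN oocytes than over the NSN oocytes. Spread is the squared CV of size-factor-scaled counts between oocytes of a configuration, after the part that counting gives was taken off. Over 11753 features with 10 or more such counts on average, its median was 0.0243 in SN and 0.0451 in NSN oocytes. The log2 ratio of spread, SN over NSN, had a median of -0.69 over the 10739 features above counting noise in both, and 30.1% of them were more spread in SN. It was -0.46 for features with mean counts of 10 to 100, -0.91 for 100 to 1000 and -1.09 for 1000 or more. Smaller numbers of oocytes lower the median of an estimated variance, and for normal values 8 oocytes against 37 would give -0.11. Against the 15 NSN oocytes of the same run and letter the ratio was -0.32, with the variance pooled within the runs it was -0.95, and by median absolute deviations it was -0.37. In young oocytes, 12 SN and 30 NSN, the median log2 ratio of spread was 0.14.

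Among the genes that the study names, Padi6, Nlrp5, Gdf9 and Bmp15 were less spread in SN oocytes, with log2 ratios of spread of -2.69, -2.67, -2.55 and -3.90. Dnmt1 and Uhrf1 had -2.40 and -2.09. Dppa3 had -0.20, and Tcl1, at 0.43, was more spread in SN oocytes. Padi6 ranged from 7107 to 9326 CPM in SN and from 1916 to 8400 CPM in NSN oocytes. Among features with 100 or more size-factor-scaled counts on average, the largest log2 ratio of spread, 5.04, was that of Rnaset2a, a ribonuclease with a near-identical paralogue. It came from SN oocyte 28A, which had 195 CPM against 31.5 to 41.5 CPM in the other 7. Next were Cntn1, a neural adhesion protein, at 3.30 and Gid8, of the GID/CTLH ubiquitin ligase, at 3.04. The smallest among the same features belonged to Setdb2, Brap and Rer1, at -10.23, -10.17 and -8.71, where the spread in SN oocytes was close to that of counting alone.

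The young oocytes held differences of the same direction and smaller size. By the same rule 249 of 9586 features (2.6%) were higher in young SN oocytes and 15 (0.156%) were lower. Of these, 230 were also higher in aged SN oocytes, 92.4% of the young list and 26.5% of the aged list, and 5 were also lower, 33.3% and 2.79%. No feature was higher in one age and lower in the other. Across 9469 features tested in both ages the log2 ratios had a Pearson correlation of 0.86 and a Spearman correlation of 0.78. Features are not independent replicates, and the study classified the oocytes of both ages together by the same genes, so the split of both ages rests on the same genes.

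Ratios were larger in aged than in young oocytes also for features chosen in the young ones. The 249 features chosen in young oocytes had a median log2 ratio of 0.77 in young and 1.28 in aged oocytes, and 230 of them had the larger ratio in aged oocytes. Their median level was 22.4 CPM in aged SN, 16.9 in young SN, 8.17 in aged NSN and 9.35 in young NSN oocytes. Gbp7 had 29.6 CPM in young SN and 7.49 CPM in young NSN oocytes, a log2 ratio of 1.98 against 3.50 in aged oocytes. Kdm1b had 337 and 188 CPM, 0.84 against 1.67, and Ddx4 had 49.7 and 25.3 CPM, 0.97 against 1.42. The features lower in aged SN oocytes had medians of -0.28 in young and -0.67 in aged oocytes, with Oosp3 at -0.64 and Oosp1 at -0.38 in young oocytes. Age, mouse and run of names cannot be told apart in this comparison.

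**Figure D4:**
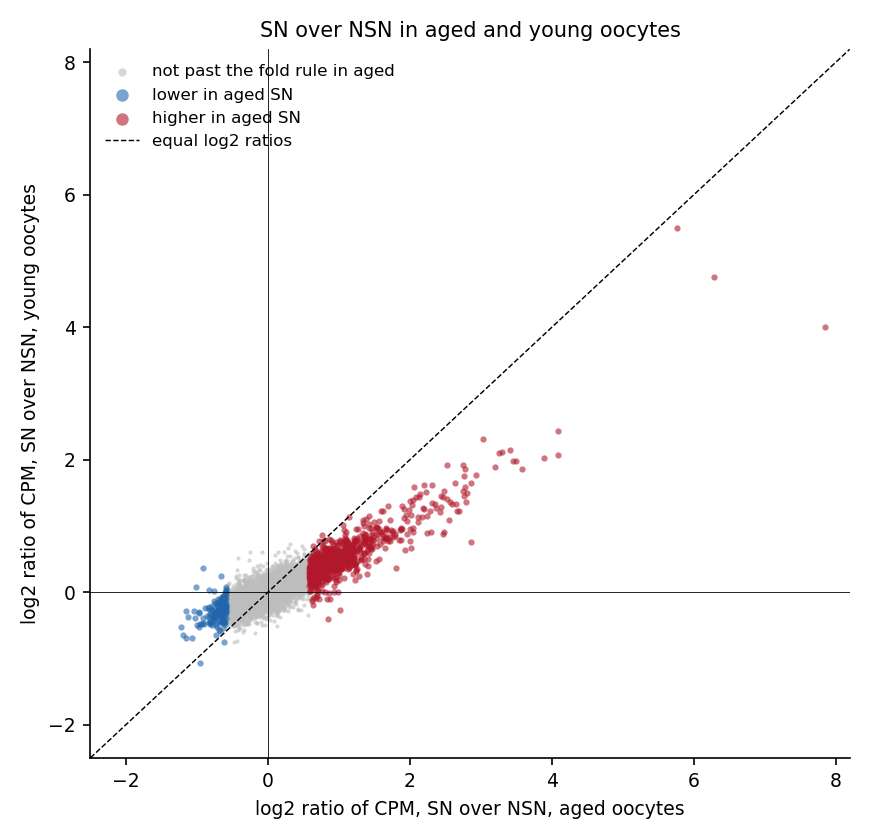
log2 ratio of CPM, SN over NSN, in aged oocytes (horizontal axis) and in young oocytes (vertical axis) for the features tested in aged oocytes, with those higher and lower in aged SN oocytes coloured and a dashed line at equal ratios. Most features higher in aged SN oocytes lie above 0 and below the dashed line.

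A score over features chosen in young oocytes did not overlap between the configurations of aged oocytes. It was the mean log2(CPM + 1) of the 200 features with the largest ratio in young oocytes less the mean of the 200 with the smallest. Since oocytes of both ages were classified together on the same genes, the separation is not independent of the split. The SN oocytes scored -1.13 (oocyte 15), -0.99 (12), -0.48 (47), -0.43 (41), -0.30 (26A), -0.23 (27A), -0.13 (28A) and 0.15 (46). The 37 NSN oocytes scored from -3.13 to -1.52 with a median of -2.29, so the gap between the lowest SN and the highest NSN oocyte was 0.39. The SN oocytes of run 1 were the nearest to the NSN oocytes, with a mean of -1.06 compared with -0.22 in run 2 and -0.26 in run 3, while the NSN oocytes of the runs had means of -2.36, -2.48 and -2.07. Of the 200 features higher in young SN oocytes, 200 had a ratio above 0 in aged oocytes, and of the 200 lower, 192 had a ratio below 0.

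**Figure D5:**
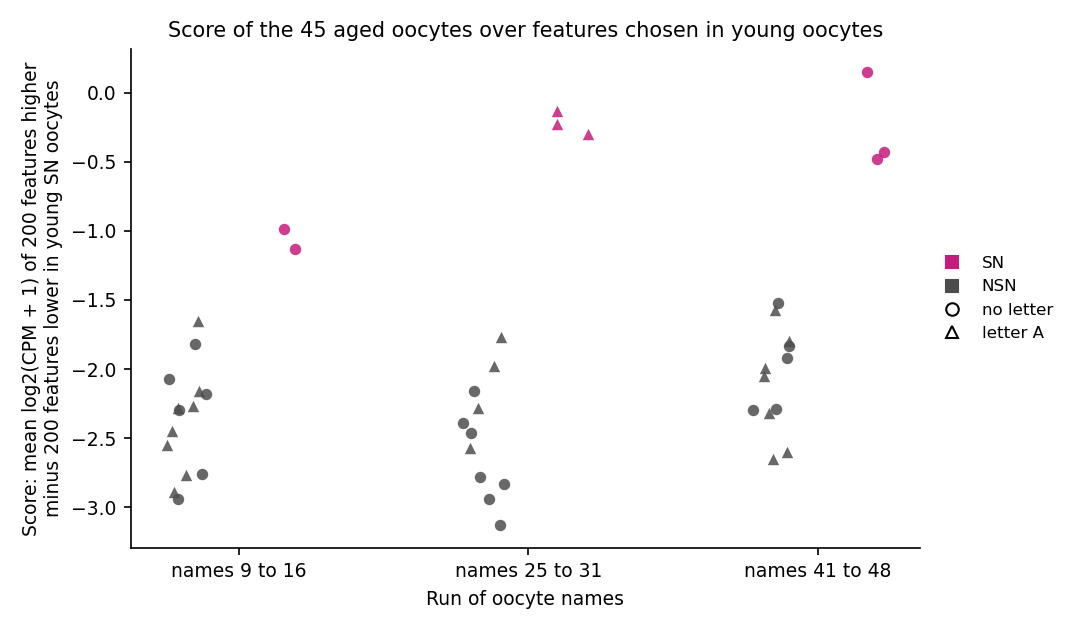
Score of each of the 45 aged oocytes over the features chosen in young oocytes, by run of names, with SN oocytes in colour, NSN oocytes in grey and triangles for names ending in A. All 8 SN oocytes, from -1.13 to 0.15, lie above all 37 NSN oocytes, from -3.13 to -1.52, and those of names 9 to 16 are the lowest SN oocytes.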

How the data were processed

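Polyadenylated RNA of single oocytes was amplified as Smart-seq2 cDNA and sequenced without molecular identifiers. The authors aligned trimmed reads with HiSat2 (GRCm38) and counted the primary alignments in features of an oocyte transcriptome, and the deposited values are raw counts for 38540 features. The counting program and its use of strand are not given in the sources used here, and 33.2% of features overlap another on the other strand. Age came from the labels and configuration from the study's list of oocytes, whose total count differs from the deposited one in 1 aged oocyte, SN oocyte 15. Features took the name of the GENCODE M21 gene of the same strand with the most similar span, at least 10% shared, which named 18775 of them.

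CPM came from counts summed over oocytes, and log2 ratios used a prior of 0.5 counts, with exact binomial 95% intervals that cover counting error only. The text gives the 8 largest and the 8 smallest ratios of named features with 1 direction in all 3 runs, 8 genes of the study, the extremes of 23 gene lists and 3 features at each end of spread. The other list members past the fold rule were added after their values were seen. Members and lists were chosen with earlier results of these data known. Spread used median of ratios size factors. TMM factors, an alternative, came from edgeR 4.0.16 in R 4.3.3, and the rest was computed in Python 3.11.15 with numpy 2.4.6 and scipy 1.17.1 and tested on simulated data. Other alternatives changed the averaging, depth, filters, fold and oocytes included.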

Additional observations from a re-analysis of the deposited data

Results flagged for a closer look

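The CPM of 74 named features, the total count, the detected features at both depths and the score were examined over the 8 SN oocytes. Of these 78 values, 4 had an oocyte that stood apart from the other 7. Chance gives about 1 in 20 for values picked beforehand, a rate that does not hold for this list. Its features were named from the same oocytes, Rnaset2a for its spread, and they are not independent. Rnaset2a had 195.1 CPM in SN oocyte 28A, and the next highest SN oocyte had 41.5 CPM. Tex12 had 26.1 CPM in SN oocyte 41, with 11.4 CPM in the next. SN oocyte 26A was the highest for Eif3i, at 109.9 CPM with 86.3 CPM in the next, and for Arpc3, at 387.5 CPM with 316.5 CPM in the next.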

How the results depend on the processing

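Each of the 8 SN oocytes shares its number with 1 NSN oocyte of the other letter, and what the number stands for is not given. Deviations from the configuration means were correlated above 0.1 in 5 of these 8 pairs, from -0.06 to 0.30, and no SN oocyte was closest to its own number, so the numbers were not used as pairs. With only these 8 NSN oocytes in the comparison (replicate block), 900 features were higher, 295 were lower, and the detected features, SN minus NSN, came to -337.6, although after thinning 7 of the 8 SN oocytes had more than the NSN oocyte of their number. A median log2 ratio was taken as moved past 0.1, a count past 1.5 times, a gene or an oocyte measure past 1 SD over the SN oocytes. TMM factors and median of ratios size factors changed no count, median or score gap past these limits. Leaving out each SN oocyte in turn gave 819 to 922 features higher, 157 to 246 lower, a difference in detected features of 319.7 to 1267, a spread ratio of -0.78 to -0.61 and a score gap of 0.39 to 0.53. A CPM minimum of 1 gave 2841 higher and 888 lower, and a fold of 2 gave 344 and 9. The lower features numbered 508, 587 and 356 within runs 1, 2 and 3, 516 with letter A, 303 without letter and 76 within the same run and letter. The detected features, SN minus NSN, came to -436.8 within run 1, which holds 2 SN oocytes. The features with 1 to 10 counts had a median of 0.27 from medians over oocytes. The spread ratio was -0.59 at a minimum of 1, -0.37 by median absolute deviation, -0.32 within the same run and letter and -0.95 with variances pooled within runs. Thinned, 33.2% of the features higher in aged SN oocytes were also higher in young ones. Of 74 named features, 12 changed sign somewhere. Rnaset2a (-0.03) ran from -0.57 to 0.11 without single SN oocytes, and was 0.07 by means and thinned, 0.68 in run 2, 0.57 with letter A and 0.13 in the same run and letter. Within run 1, Cnot6l was 0.26, Utp20 0.17, Nipbl 0.43, Atrx 0.30, Cyp19a1 0.11, Cntn1 0.28, Gid8 -0.05 and Rer1 -0.17. Within run 2, Dppa3 was 0.08, Cyp19a1 0.00, Pecam1 -0.14 and Rer1 -0.00. With letter A, Dppa3 was 0.01 and Utp20 0.03, and without letter Cyp19a1 was 0.17. In the same run and letter, Dppa3 was 0.03, Cyp19a1 0.00, Pecam1 -0.05 and Brap -0.01. Thinned, Rer1 was -0.03. The cause was not tested. The comparison in the same run and letter, that by number, the pooled variance and total counts as size factors for spread were chosen after seeing the data. With 8 SN oocytes from mice that are not named, the SDs measure oocytes, and features under 10 CPM rest on few reads in each oocyte.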

Other observations

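Some of the other features without overlap are given here, chosen after their values were seen. Hsf2, a heat shock factor expressed in germ cells, had 13.9 to 37.3 CPM in SN and 0 to 9.22 CPM in NSN aged oocytes, a log2 ratio of 2.87. The chaperones Hsph1 and Cct4 had log2 ratios of 1.35 and 1.16, at 344 against 135 CPM and 142 against 63.8 CPM. The actin-binding proteins Iqgap1 and Lcp1 had 2.04 and 1.99, and Tfam, which packages mitochondrial DNA, had 1.14 at 33.3 against 15.1 CPM. Eloa, a subunit of the transcription elongation factor elongin, had 2.17. The largest ratio of any feature, 7.85, was that of TCONS_00111506, which has no annotated gene and lies on the X chromosome. It had 4.35 to 18.3 CPM in the SN oocytes and 0 to 0.551 CPM in the NSN oocytes. The features below all NSN oocytes were Ccdc69 at -0.68, Gm26819 and Med10 at -0.61, Gtf2f2 at -0.60 and Zdhhc13 at -0.50. Gm26819 and Med10 had nearly the same values, 81.6 and 81.9 CPM in SN and 124.8 and 125.1 CPM in NSN oocytes. Whether these features hold the same reads was not tested.

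Aged oocyte 48A, which has no predicted configuration, scored -0.50 over the features chosen in young oocytes, inside the range of the SN oocytes and above every NSN oocyte.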
